A study of Homo sapiens with 2 samples.

Results

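Chromatin remodellers and the enzymes that add or remove marks on histones and DNA were followed after knockdown of the NKL homeobox gene HLX. The set held 55 genes, listed by name from textbook complexes and enzyme families. Of these, 52 had a probe set assigned to them alone, and 50 had at least 1 probe set above the level threshold, among 12135 of 19775 genes measured on the arrays. RNF2, BMI1 and CBX8 had no probe set of their own in the annotation and were not analysed here. DNMT3A and TET1 were read only below the threshold. The cells were SU-DHL-1, an established line grown from an anaplastic large cell lymphoma (ALCL), a tumour of mature T cells, and it carries the NPM1-ALK fusion. Cells were electroporated with an siRNA against HLX (siHLX) or with a negative control siRNA (siCTR) and harvested within a day, and both groups were the same line apart from the siRNA. Each group was 1 Affymetrix HG-U133 Plus 2.0 array, so no difference has a replicate error, no test was run, and in bulk RNA the number of cells that make a transcript and its amount per cell cannot be told apart.

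All values are log2 intensities, and every difference is the value with siHLX minus that with siCTR. The level threshold of 4.865 was the median of all probe sets that were not controls, and a gene was read by its brightest probe set. HLX, the target, read 8.15 on the control array and 7.70 after knockdown (-0.45), so the knockdown seen on the arrays was partial. Median intensity was 4.87 on both arrays. Poly-A control transcripts, added before labelling, had a mean difference of -0.289 (SD 0.177) over 24 probe sets. Scaling to them would add the same amount to every difference and put the median over all genes at 0.28 in place of -0.01, with the effect that 47 of the 50 chromatin genes would lie above 0. All differences below are therefore relative to the bulk of genes. Of the ALCL markers, 8 of 8 lay above the threshold, with mean levels of 11.2 (siCTR) and 11.3 (siHLX). Of the markers of other cells that had a probe set, 3 of 5 for B cells, 1 of 5 for myeloid cells and 1 of 6 for epithelium and stroma lay above it.

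Chromatin is kept closed or open by opposing machines. Polycomb complexes methylate histone H3 and ubiquitinate histone H2A to hold developmental genes silent, whereas SWI/SNF complexes use ATP to slide or evict nucleosomes and oppose them. Acetyltransferases loosen nucleosomes and deacetylases reverse the mark, the NuRD complex joins deacetylation with remodelling, and DNA methyltransferases and TET enzymes write and oxidise methylated cytosine. In T-cell lymphomas these regulators are recurrent targets of mutation and of drugs.

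None of the 50 chromatin genes differed by 1.5-fold, against 5.04% of all genes, and none by 2-fold, against 0.832%. With siHLX, 28 read higher and 22 lower, where 47.4% of all genes were higher and 50.2% lower. Their median difference was 0.025, that of all genes -0.01. A difference of at most 0.1 in size was seen in 22 of the 50 (44.0%), compared with 40.5% of all genes, and one of at least 0.3 in 6 (12.0%), compared with 20.9%. These 6 were SMARCA2, KDM6B and EHMT1 on the higher side and KDM1A, TET2 and KAT2B on the lower. Only the latter 3 would stay below 0 with scaling to the poly-A controls.

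The spread of differences on these arrays narrows with brightness, and the chromatin genes are bright. Of the 50, 21 had a mean level of 9 or more, where the SD of their differences was 0.139 and that of all 3672 genes was 0.135. Between 7 and 9 lay 20 of them, with an SD of 0.173 against 0.206 for all genes. The 9 dimmest ones, between the threshold and 7, had 0.272 against 0.397. A limit of 1.5-fold was passed by 12.7% of all genes in that lowest band but by 0.0817% in the highest, and 567 of the 612 genes past it lay in that lowest band, which held 9 of the 50 chromatin genes.

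**Figure D1:**
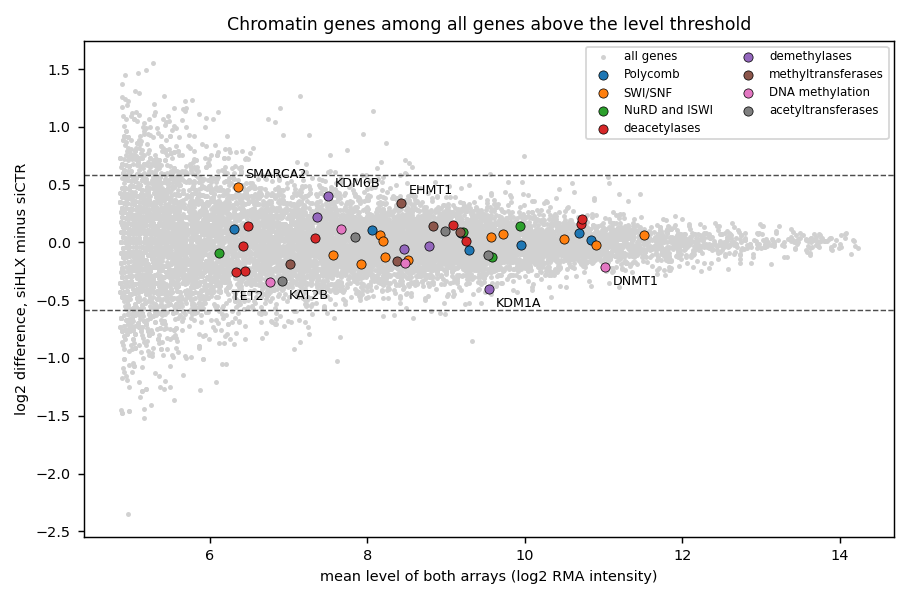
Differences, siHLX minus siCTR in log2 units (y axis), plotted by level, the average of the pair of arrays in log2 intensity (x axis), for 50 chromatin genes (coloured by functional group) and all genes above the level threshold (grey), with dashed lines at 1.5-fold. All coloured points lie between the lines, with SMARCA2 highest at 0.48 and KDM1A lowest at -0.40, relative to the bulk of genes.

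At the edges of the set stood SMARCA2, with the highest reading at 0.48, and KDM1A, with the lowest at -0.40; TET2 was the lowest of the DNA methylation genes at -0.34. Their promoters are shown because HLX is a homeodomain protein, a class that binds AT-rich cores. RefSeq promoter windows of GRCh38.p14 (250 bases before to 50 after a start site) were available for 49 of the 55 genes, in 83 windows. The core TAATTA, a palindrome, was found in 2 of them (2.41%), both of HDAC4, and in 4.84% of all 35116 windows. The core CAATTA or its reverse complement TAATTG was found in 8 (9.64%), from ARID1B, CREBBP, HDAC9, KDM6A, SMARCA2 and TET2, and in 7.38% of all. A match is only a run of letters. For TET2 and SMARCA2 a window with a core was chosen for printing, so the printed windows overstate how common the cores are. KDM6B (0.40) and EHMT1 (0.34) lay as far from 0 as KDM1A and TET2 but were not printed. KDM1A had none of these cores in its only window, a TET2 window had 1 at 168 bases before the start, and of the 4 SMARCA2 windows the one shown had 1 at 231 bases before it; capitals mark the core, the sequences run 5′ to 3′ on the plus strand.
KDM1A, chr1:23019218-23019517: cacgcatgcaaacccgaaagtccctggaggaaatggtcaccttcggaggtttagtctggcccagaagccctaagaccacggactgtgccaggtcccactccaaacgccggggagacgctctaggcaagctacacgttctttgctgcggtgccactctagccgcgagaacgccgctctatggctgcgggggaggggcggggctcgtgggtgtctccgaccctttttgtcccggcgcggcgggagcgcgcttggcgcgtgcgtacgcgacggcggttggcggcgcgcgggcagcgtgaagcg
TET2, chr4:105145625-105145924: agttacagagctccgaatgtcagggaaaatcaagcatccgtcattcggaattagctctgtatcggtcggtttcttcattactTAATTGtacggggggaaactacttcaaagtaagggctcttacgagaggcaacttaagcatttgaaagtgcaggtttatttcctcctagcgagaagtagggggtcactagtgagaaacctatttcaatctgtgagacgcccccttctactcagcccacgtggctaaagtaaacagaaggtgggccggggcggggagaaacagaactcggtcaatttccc
SMARCA2, chr9:2021695-2021994: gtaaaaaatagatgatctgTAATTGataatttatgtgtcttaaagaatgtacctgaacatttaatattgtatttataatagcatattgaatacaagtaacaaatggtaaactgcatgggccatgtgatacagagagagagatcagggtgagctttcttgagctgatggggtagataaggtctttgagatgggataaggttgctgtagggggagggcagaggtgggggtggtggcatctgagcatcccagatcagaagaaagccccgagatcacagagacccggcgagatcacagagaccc
The windows of the chromatin genes were rich in G and C, with a median of 68.3% and 29 CG dinucleotides per window, whereas all windows had 58.7% and 14. The printed windows had 66.7% and 36 for KDM1A, 47.7% and 13 for TET2, and 43.0% and 3 for SMARCA2. The other TET2 window, not printed and without the core, had 68% and 35. The other SMARCA2 windows, without the core, had 43.0%, 48.7% and 66.7%. In SMARCA2 a low share of G and C was thus not particular to the window with the core.

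Polycomb genes hardly differed between the arrays. The subunits of PRC2, which methylates histone H3, read 9.96 and 9.94 for the catalytic EZH2 (siCTR and siHLX, here and below), 10.65 and 10.73 for the H3-binding EED, and 10.83 and 10.85 for the scaffold SUZ12. EZH1, the alternative catalytic subunit, read 9.32 and 9.25. In PRC1, which ubiquitinates H2A, the ring-finger gene RING1 read 9.15 and 9.23, and the chromodomain genes CBX2 and CBX7, which bind methylated H3, read 8.0 and 8.11, and 6.25 and 6.37. All 7 lay between -0.07 and 0.12, with a median of 0.08 and 5 higher. The narrow range holds for the brightest probe sets only. EZH1 was read by 4 probe sets above the threshold with differences of -0.07, -0.48, 0.26 and 0.89 from bright to dim, and CBX2 by 3 with 0.11, 0.24 and -1.27.

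SWI/SNF genes also centred near 0, with a median of 0.02 and 7 of 12 higher. The ATPase SMARCA4 read 10.49 and 10.52. Its alternative, SMARCA2, read 6.12 on the control array and 6.60 after knockdown, and 6.28% of the probe sets at a similar level (mean within 0.5 log2 units) differed upward by as much. Its other probe sets above the threshold gave 0.17 and 0.13, and those below it ran from -0.56 to 0.80. SMARCB1, a core subunit lost in rhabdoid tumours, was the lowest of the group at 8.02 and 7.83, and its 3 probe sets gave -0.19, -0.56 and -0.08. SMARCE1, a DNA-binding subunit of the same complex, had closely matching readings, with 0.06, 0.04, 0.07 and 0.05 on 4 probe sets. The group also held the core scaffolds SMARCC1 (-0.02) and SMARCC2 (-0.13) and the SMARCD1 (0.06) and SMARCD2 (0.01) subunits. The large subunits that distinguish the complexes, ARID1A (0.07), ARID1B (-0.15), ARID2 (-0.11) and PBRM1 (0.05), completed it. These values are from the brightest probe sets. The next brightest read 0.54 for ARID2 and -0.40 for ARID1B at a similar level, and averaging put ARID2 at 0.0975.

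The genes of NuRD and ISWI remodelling were mixed. CHD4, the ATPase of NuRD, read 9.65 and 9.52 on its brightest probe set, while the others read 8.97 and 9.35, and 8.50 and 8.84. These differences of -0.13, 0.38 and 0.34 were all from bright probe sets, and 1.27% and 3.48% of the probe sets at a similar level lay as high as the latter. MTA1 and MTA2, scaffolds of the same complex, had 0.09 and -0.09. The dimmer probe set of MTA1 read 0.78. SMARCA5, the ISWI ATPase that spaces nucleosomes, read 9.87 and 10.01, a difference of 0.14.

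Among the deacetylases, the class I enzymes HDAC1, HDAC2 and HDAC3, which work in nuclear corepressor complexes, all read higher with siHLX. HDAC1 went from 10.63 to 10.79, HDAC2 from 10.62 to 10.82 and HDAC3 from 9.01 to 9.16. Of the probe sets at a similar level, 8.79%, 4.55% and 16.9% lay as far up. HDAC1 and HDAC3 had only 1 probe set, and the dimmer one of HDAC2 read -0.17. The class IIa enzymes, which shuttle between nucleus and cytoplasm, went both ways, with HDAC4 at 0.01, HDAC7 at 0.14, HDAC5 at -0.25 and HDAC9 at -0.26. HDAC6, a cytoplasmic tubulin deacetylase, had -0.03 and SIRT6, a deacetylase that uses NAD, 0.04. The dimmer probe sets above the threshold read 0.60 for HDAC5 and 0.56 for HDAC6, and the one of HDAC6 below it -0.56. The 9 genes had a median of 0.04, and 0.14 when all probe sets of a gene above the threshold were averaged.

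Histone demethylases had the widest spread of the groups, an SD of 0.304 over 5 genes, with the extremes in opposite directions. KDM1A (LSD1), which removes methyl groups from H3 and is a partner of HDAC1 and HDAC2, read 9.74 on the control array and 9.34 after knockdown, a difference of -0.40 or 0.758 times the control value. At this level 0.883% of probe sets lay as far down, but KDM1A is described as the lowest of 50 genes, which favours a small share. HLX, fixed beforehand as the siRNA target, had 1.59% at its own level, so these shares cannot be compared. KDM1A was read by 1 probe set, so no other reading bears on it. The shares given for SMARCA2, KDM6B, EHMT1 and other genes described for their large differences are favoured in the same way. KDM6B (JMJD3), an inducible enzyme that removes the Polycomb mark from H3, read 7.30 and 7.70, and 4.55% lay as far up. Of its other probe sets above the threshold, 0.35 and 0.37 had the same direction and -0.07 did not, and the one below it read -0.53. KDM6A (UTX), which acts on the same mark, read 8.49 and 8.43. KDM5A and KDM5B, which act on the mark of active promoters, had -0.03 and 0.22 on their brightest probe sets. Further probe sets above the threshold read -0.32, -0.39, 0.10 and 0.17 for KDM5A, and -0.27 and 0.42 for KDM5B. The group median of -0.03 lay above 0 with averaged probe sets (0.123) and with scaling to the poly-A controls (0.26).

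Of the histone methyltransferases, EHMT1 (GLP) read highest relative to the control, from 8.26 to 8.60, and 4.21% of probe sets at a similar level lay as far up. Its dimmer probe sets, below the threshold, read 0.13 and 0.09. EHMT2 (G9a), with which it forms the enzyme that methylates H3 in euchromatin, went the other way, from 8.46 to 8.30, and its next probe set read 0.16. SUV39H1 and SUV39H2, which make the heterochromatin mark, had -0.19 and 0.14, and the dimmer probe set of SUV39H2 read -0.42. SETD2, which marks transcribed gene bodies and is mutated in T-cell lymphomas, read 9.13 and 9.22. Its dimmer probe sets above the threshold read -0.09 and 0.98. Together the 5 genes had a median of 0.09, with 3 higher, and a median of 0 with averaged probe sets.

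The genes of DNA methylation had the lowest median of the groups, -0.195, with 3 of 4 lower, and 0.0942 with scaling to the poly-A controls. DNMT1, which copies methylation at replication, read 11.12 and 10.91. This difference of -0.21 came from a bright and single probe set, and 3.27% at a similar level lay as far down. DNMT3B, a de novo methyltransferase, had 0.12. TET2, an oxidase of methylated cytosine often mutated in T-cell lymphomas, read 6.94 and 6.60, and 10.7% of the probe sets at a similar level lay as far down. TET3 read 8.57 and 8.39, and its dimmer probe sets read -0.96 above the threshold and -0.71 below it. TET2 below the threshold read 1.19 and 0.18. DNMT3A read 4.65 and 4.69 and TET1 3.79 and 4.40, both under the threshold. With these added, the median of the group was -0.07.

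Acetyltransferases had a median of -0.03 over 4 genes, -0.13 with averaged probe sets and 0.26 with scaling to the poly-A controls. The large coactivators EP300 and CREBBP read 7.82 and 7.87, and 8.94 and 9.04, on their brightest probe sets. Their other probe sets above the threshold read -0.15 for EP300, and 0.00 and -0.55 for CREBBP. KAT2A (GCN5) and KAT2B (PCAF), alternative catalytic subunits of the SAGA coactivator, were both lower, at -0.11 and -0.33. KAT2B went from 7.08 to 6.75 on its only probe set, and 10.6% of probe sets at a similar level lay as far down.

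**Figure D2:**
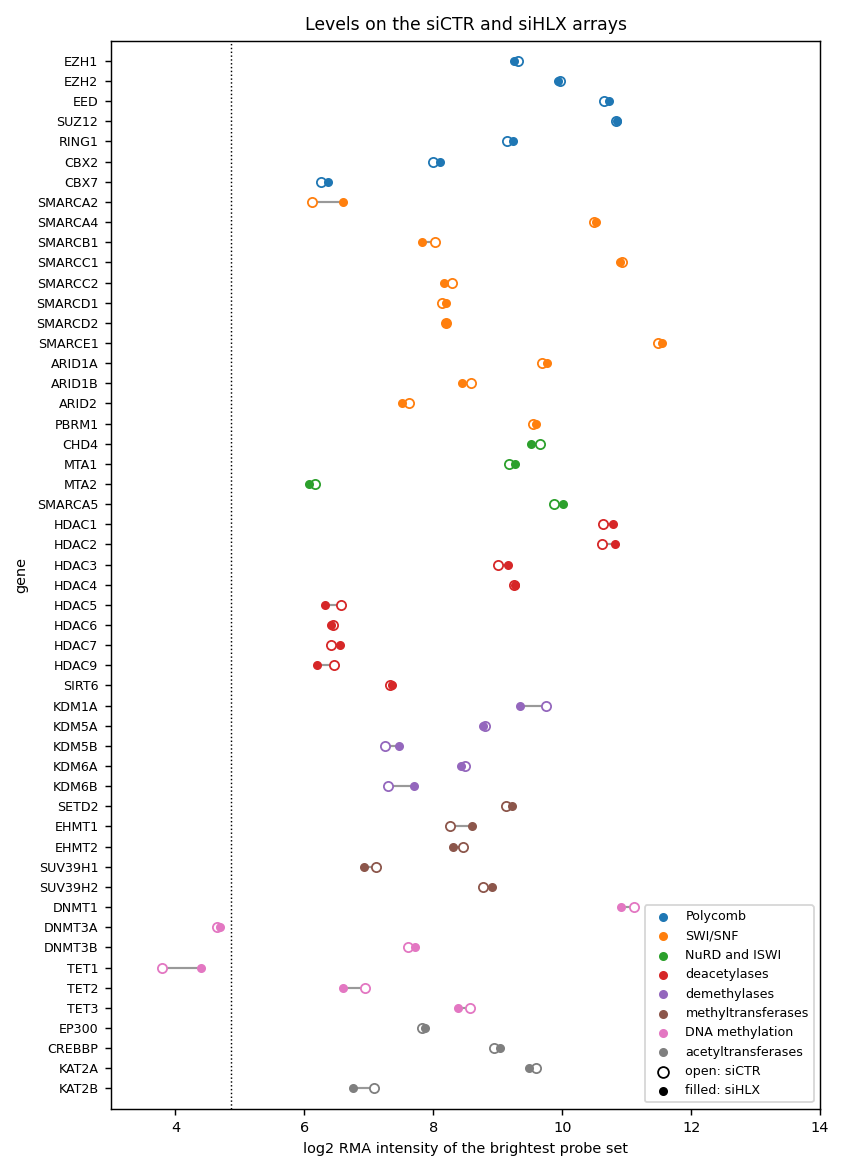
Log2 RMA intensity of the brightest probe set (x axis) of 52 chromatin genes (y axis, coloured by functional group) on the siCTR array (open circles) and the siHLX array (filled circles); the dotted line is the level threshold of 4.865. Most pairs of circles touch. Among the widest gaps, KDM1A, TET2 and KAT2B show a lower filled circle. SMARCA2, KDM6B, EHMT1 and, below the threshold, TET1 show a higher one. Levels of different genes cannot be compared because probe sets bind with different strength.

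Several genes of the set are paralogues of related function, and their differences can be set side by side. Of 14 such pairs, 13 had both genes above the threshold, and in 6 of these the brightest probe sets went in opposite directions. On these probe sets the gap was widest for EHMT1 over EHMT2 (0.50), SMARCA2 over SMARCA4 (0.45) and KDM6A under KDM6B (-0.46). It was 0.05 or less in size for EZH1 and EZH2, HDAC1 and HDAC2, EP300 and CREBBP, and SMARCD1 and SMARCD2. These gaps and directions depended on the probe sets used. Averaging the probe sets above the threshold put 7 pairs in opposite directions, with SUV39H1 and SUV39H2 then both lower. With all probe sets above the threshold averaged, the gap was 0.34 for EHMT1 and EHMT2, 0.30 for SMARCA2 and SMARCA4, and -0.07 for KDM6A and KDM6B, whose means were both above 0. It became 0.17 for EZH1 and EZH2, 0.145 for HDAC1 and HDAC2, 0.10 for EP300 and CREBBP, and -0.28 for SMARCD1 and SMARCD2, and MTA1 over MTA2 was then the widest at 0.525. For scale, the pooled SD between probe sets of the same gene was 0.268 over all genes, which does not stand in for replicate cultures. Scaling to the poly-A controls leaves every gap as it is, whereas the signs of single genes do not.

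The chromatin genes are also heavily tiled, and their probe sets disagreed more than those of other genes. They had 155 probe sets, 120 of them above the threshold. Of these 120, 9 differed by 1.5-fold or more (7.5%), 5 up and 4 down, against 6.01% of all probe sets above the threshold. None of the 9 was the brightest of its gene, and 8 had a mean level below 6. They belonged to SETD2 (0.98), EZH1 (0.89), KDM6A (0.81), MTA1 (0.78), HDAC5 (0.60), SMARCD1 (-0.60), PBRM1 (-0.64), TET3 (-0.96) and CBX2 (-1.27). In CBX2, EZH1, SETD2 and PBRM1 the probe sets above the threshold lay 1 log2 unit or more apart. The pooled SD between probe sets was 0.352 for the 33 chromatin genes with at least 2 above the threshold. Whether these readings come from other transcript ends or from weak probes was not tested.

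In 7 of these 33 genes (21.2%) every probe set over the threshold went in 1 direction, against 37.1% of all genes. Genes with more probe sets meet this rule less often: with 2 probe sets 3 of 12 did (all genes 49.4%), with 3 it was 3 of 11 (28.4%) and with 4 or more 1 of 10 (13.4%). HDAC4, SIRT6, SMARCE1, SMARCA2 and MTA1 were higher, SMARCB1 and TET3 lower. A mean of at least 0.2 in size was reached by 4 (12.1%), against 16.6% of all genes. These were MTA1 (0.435, SD 0.49, 2 probe sets), SMARCA2 (0.26, SD 0.19, 3), SMARCB1 (-0.28, SD 0.25, 3) and TET3 (-0.57, SD 0.55, 2), and with scaling to the poly-A controls the mean of SMARCB1 would lie above 0.

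**Figure D3:**
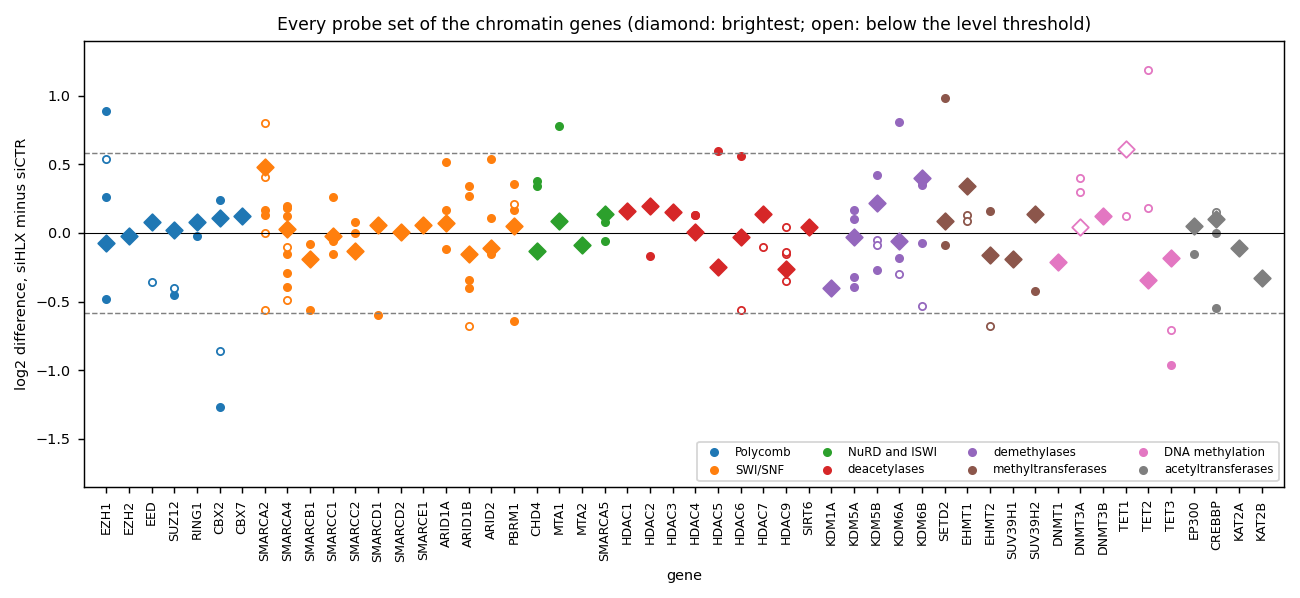
Differences, siHLX minus siCTR in log2 units (y axis), for every probe set of 52 chromatin genes (x axis, coloured by functional group); diamonds are the brightest probe set of a gene, filled symbols lie above and open symbols below the level threshold, and dashed lines mark 1.5-fold. Filled diamonds all lie between the dashed lines, whereas dimmer probe sets of SETD2 (0.98) and CBX2 (-1.27), among others, lie outside, relative to the bulk of genes.

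A further list of 138 genes of the same or related complexes and enzyme classes gave a similar picture. Of the 125 above the threshold, 65 were higher (52.0%, all genes 47.4%) and 59 lower (47.2%, all genes 50.2%), with a median of 0.01. Only 1 passed 1.5-fold, against 5.04% of all genes. This was KDM1B, the paralogue of KDM1A, which read 5.31 on the control array and 6.42 after knockdown, a difference of 1.11 opposite in direction to KDM1A. It was dim and read by 1 probe set above the threshold, and 0.408% of probe sets at a similar level lay as far up. KDM1B is described as the highest of 125 genes, which favours a small share. Each companion is read by its brightest probe set where no further values are printed, and BRD3, KAT6B, HDAC8, KDM8, KMT2A, SETDB1, SETDB2, NSD3, MBD4, ZBTB38 and PCGF5 each had another probe set above the threshold with the opposite sign.

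The companions of the acetyltransferases had the lowest median, -0.175, with 12 of 16 lower; it was -0.126 with averaged probe sets and 0.114 with scaling to the poly-A controls. TAF1 of the TFIID complex read 9.12 and 8.80, with its other probe set above the threshold at -0.42, and TADA2A, an adaptor of KAT2A and KAT2B, had -0.32 and -0.06. BRD3, which reads acetylated histones, had 0.29, and -0.21 on its other probe set, and KAT6B had 0.19. With the 4 members, 14 of 20 genes of this group were lower (70.0%, all genes 50.2%), with a median of -0.15. Beside acetyltransferases, the group held adaptors such as TADA2A and readers such as BRD3. Of the companions of the deacetylases, 8 of 11 were lower (72.7%, all genes 50.2%). Their median of -0.10 became 0.189 with scaling to the poly-A controls. Among them were the sirtuins SIRT7 (-0.36) and SIRT5 (-0.27), while RCOR1, a partner of KDM1A, had 0.20 and HDAC8 0.41. SIRT1, a deacetylase that uses NAD, read 8.85 and 8.81.

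The companions of NuRD and ISWI had 15 of 20 genes higher and a median of 0.07. Their list also held remodellers of other families, among them CHD1, CHD7, INO80, SRCAP and EP400. With averaged probe sets the median was 0.023. GATAD2B (0.39, and -0.25 on a dimmer probe set) and EP400 (0.37, and 0.04 and 0.60) were highest, while MBD3, the NuRD subunit that links CHD4 to the complex, was lower on all 3 probe sets, with -0.36, -0.17 and -0.27, and BAZ1A had -0.30 and 0.27 on probe sets of similar brightness. Companion methyltransferases had a median of 0.035, and -0.02 with averaged probe sets, with KMT2A (MLL1) highest at 0.47, SETDB2 at 0.31, NSD3 at -0.24 and SETDB1 at -0.26. Companion demethylases had 0.04, with KDM8 at 0.32, KDM3A at -0.19 and KDM5C at -0.20. Companions of DNA methylation had -0.065, with 5 of 8 lower (62.5%, all genes 50.2%). UHRF2, which binds hemimethylated DNA, read 11.24 and 10.89, a difference of -0.35. At a similar level 0.412% of probe sets lay as far down, but UHRF2 is described as the lowest of its list, which favours a small share. Its paralogue UHRF1, the partner of DNMT1, had -0.07, and MBD4 had -0.14, TDG 0.06 and ZBTB38 0.22.

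The Polycomb companions had a median of 0.02, and -0.03 with averaged probe sets, with 13 of 23 higher (56.5%, all genes 47.4%). Among them were PCGF5 at 0.26, RYBP at 0.18, SCMH1 at -0.29 and YAF2 at -0.40. RYBP and YAF2 are paralogues that occupy the same place in variant PRC1. MGA, a DNA-binding subunit of a variant PRC1, was read by 3 probe sets above the threshold with 0.08, -0.14 and 0.31. SWI/SNF companions had a median of -0.03, with BICRA at 0.14, DPF1 at 0.08, and DPF2 at -0.21 and DPF3 at -0.41 on the lower side.

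**Figure D4:**
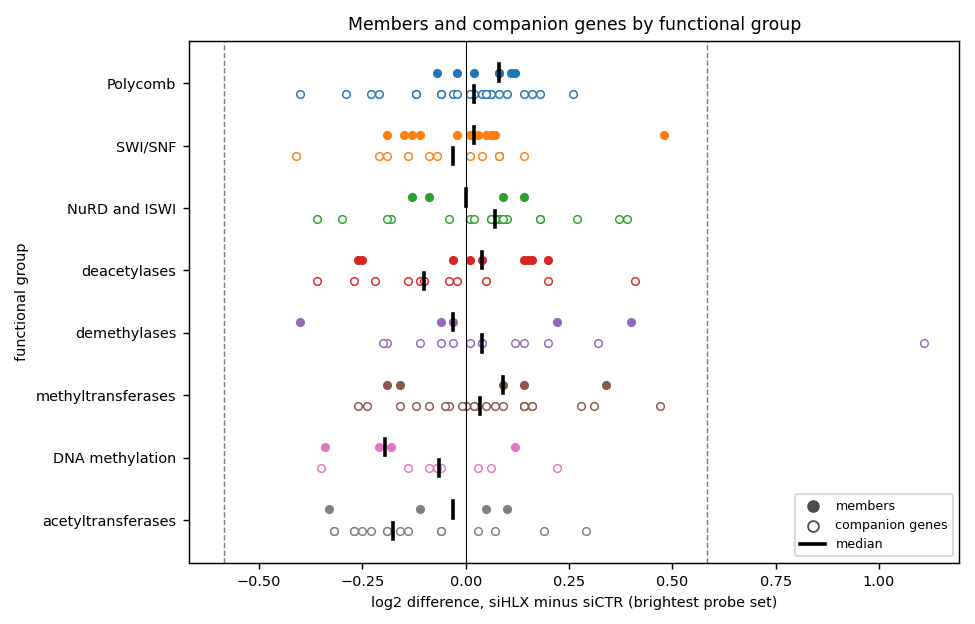
Differences, siHLX minus siCTR in log2 units on the brightest probe set (x axis), by functional group (y axis). Filled symbols are chromatin genes and open symbols companion genes of the same or related classes, all above the level threshold. Black bars are medians and dashed lines mark 1.5-fold. The medians lie between -0.195 (DNA methylation) and 0.09 (methyltransferases), the companions of the acetyltransferases at -0.175, and KDM1B is the only point outside the lines; all are relative to the bulk of genes, and with scaling to the poly-A controls every median lies above 0.

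EZH2, DNMT1, SUV39H1 and UHRF1 are known to be made mostly by dividing cells. They had -0.02, -0.21, -0.19 and -0.07. These genes are not a full list, and UHRF1 was added after values had been seen. Beside them, 11 of 15 proliferation genes were lower (73.3%, all genes 50.2%). The 4 higher ones were MKI67 (0.08), MCM2 (0.04), MCM4 (0.02) and MCM6 (0.02). The median of the 15 was -0.05, which would lie above 0 with scaling to the poly-A controls. Differences ranged from -0.33 to 0.08, and mean levels were 10.92 with siCTR and 10.83 with siHLX. The part of proliferation in these differences was not tested.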

How the data were processed

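Total RNA of 2 samples, 1 per siRNA, was labelled and hybridised to HG-U133 Plus 2.0 arrays. The deposited values were log2 intensities per probe set, RMA background corrected and quantile normalised by the authors with limma and affy, whose versions are not given in the sources used here; quantile normalisation makes both arrays equally bright overall. Division by the sample mean is named in the methods as well, but the deposited values run up to log2 intensities far above 0 and are not such ratios.

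Of 54613 probe sets that were not controls, 41091 had 1 gene in the platform annotation, 1801 several and 11721 none. Symbols were checked through Entrez identifiers with RefSeq GRCh38.p14, and 0 changed. Groups came from the treatment label. With 1 array per group, only differences, counts and medians are given, beside those of all genes, and the number of arrays limits the precision. Every member could be named; values were required for HLX, the extremes of each functional group, members past 1.5-fold, members whose probe sets all had 1 sign with a mean of at least 0.2 in size or lay 1 log2 unit or more apart, members without a probe set above the threshold, the 2 highest and 2 lowest companions of a list, SIRT1 and MGA. KDM1A, KDM6B and other members were described further, and UHRF1 was added, after values had been seen. The members and lists were chosen with earlier results of these data known, and the paralogue pairs and promoter cores after values had been seen. Alternatives were other scalings (median centring, lowess with fraction 0.2, quantile normalisation, poly-A controls), averaging of probe sets, leaving out _s_at and _x_at ones (probes shared between transcripts), no threshold, the 75th percentile, and a 2-fold limit. Calculations used Python 3.11.15 with pandas 2.3.3 and were tested on simulated data.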

Additional observations from a re-analysis of the deposited data

How the results depend on the processing

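Scaling to the poly-A controls added 0.289 to each difference. The median of the chromatin genes became 0.31, of Polycomb 0.37, SWI/SNF 0.31, NuRD and ISWI 0.29, deacetylases 0.33, demethylases 0.26, methyltransferases 0.38, DNA methylation 0.0942, acetyltransferases 0.26 and the companions 0.30, HLX became -0.16, 47 chromatin genes were higher, and 3 (SMARCA2, KDM6B and EHMT1) passed 1.5-fold, with 10.9% of all genes. Averaging all probe sets above the threshold changed the sign of 15 of 50 chromatin genes and gave medians of 0.03 for Polycomb, 0.125 for NuRD and ISWI, 0.14 for deacetylases, 0.123 for demethylases, -0.13 for acetyltransferases and -0.04 for the companions. Without _s_at and _x_at probe sets 30 genes were left, 16 of them higher, with 0.14 for the only NuRD and ISWI gene and -0.02 for the companions. Without a level threshold 1 of 52 chromatin genes, TET1, passed 1.5-fold, against 8.81% of all genes, and DNA methylation had -0.07. With the threshold at the 75th percentile 40 genes were left, and the medians were 0.05 for Polycomb, 0.09 for NuRD and ISWI and 0.15 for deacetylases. Median centring, lowess and renewed quantile normalisation changed the sign of 0 of 50 genes and passed none over 1.5-fold. No paired analysis was possible because each group had 1 array. Signal near the level threshold and 1 array per group limit these values, and the limits were not ranked.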
